A study of Homo sapiens with 6 samples.

Results

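The expression of 47 genes of the non-collagen extracellular matrix, encoding glycoproteins, proteoglycans and elastic fibre components, was compared between mitotic fibroblasts with and without activated Ras. In Ras-induced mitotic cells 14 of them fell and 4 rose by the test below, where 5.67% of all tested genes fell and 11% rose. Partners in one structure could move apart. The members were taken by symbol from a named list, which was drawn up with earlier results of these data known. All 47 were found among the 63009 genes with 1 value per library, each taken from the row of highest mean where a symbol was repeated. Of these, 41 had a mean of at least 1 FPKM and were among the 13993 genes tested. FPKM sets the fragments mapped to a gene against its length and against all mapped fragments of the library, so levels can be set side by side between genes. Between libraries it is a relative level that depends on the other RNA of the library, and the effect of rescaling is given below.

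The RNA came from IMR90 cells, a line of human lung fibroblasts, transduced with oncogenic H-RasV12 as a fusion to the ligand-binding part of the estrogen receptor, which tamoxifen switches on (ERRAS cells). Both groups therefore carried the transgene and were kept in G418 with fetal calf serum at low oxygen. The 3 control libraries came from uninduced cells and the 3 Ras-induced libraries from cells induced for 4 days, with tamoxifen at 100 nM in the sample labels and with 4OHT at another dose in the study's methods. Cells of both groups were held in mitosis with 1 µM DME, an inhibitor of the kinesin Eg5, and the detached cells were collected at a mitotic index above 90%. As a model this is 1 fibroblast line with a fusion protein switched on by drug, and the controls were the same cells without induction. The study states that the experiment was repeated independently, while the labels do not say whether the libraries are separate cultures, so the p-values below measure the spread between these libraries.

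Elastic fibres are built on a scaffold of fibrillin microfibrils, onto which fibulins place the soluble precursor of elastin, and the latent TGF-β binding proteins of the LTBP family are stored on the same scaffold. Small leucine-rich proteoglycans coat collagen fibrils and limit their thickness, matricellular glycoproteins such as SPARC and the CCN proteins signal to cells without being structural, and syndecans and glypicans hold heparan sulfate at the cell surface. In basement membranes, a laminin network is tied to collagen IV by nidogens and by the heparan sulfate proteoglycan perlecan, and fibroblasts make many of these components.

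Of the 41 tested members, 18 were called, that is, had a limma adjusted p at or under 0.05 on log2(FPKM + 1) with Benjamini-Hochberg adjustment over all tested genes. Over all tested genes, 16.7% were called. The 18 comprised 14 members that fell, where 5.67% of all tested genes were called lower, and 4 that rose (POSTN, LAMA4, THBS2 and LAMB1), where 11% of all tested genes were called higher. A log2 fold change of at least 1 in either direction was reached by 13 of the called members, against 3.92% of all tested genes. In 26 members the 3 Ras-induced values all lay to one side of the 3 control values, 21 of them lower and 5 higher, where 39.9% of all tested genes had groups that did not overlap. The median log2 fold change of the members was -0.38 and that of all tested genes 0.10. Quantile normalization or upper-quartile scaling brings the all-gene median to 0.01 or 0.00 and the members' median to -0.50 or -0.49. The order of the all-gene shares depends on this scaling, with 1543 genes called higher and 793 lower as deposited, 1044 and 1109 on quantile-normalized values and 921 and 1101 on values scaled to the upper quartile. For the members the counts were 4 higher and 14 lower, 4 and 17, and 3 and 18. Without control library 1 the members' median was -0.61, and without Ras-induced library 1 it was -0.62. Leaving out control library 2 left 9 of the 14 falls called, and leaving out Ras-induced library 1 or 2 left 2 of the 4 rises. Fold changes on log2(FPKM + 1) understate the change of members with few FPKM, and in RNA pooled from many collected cells, fewer cells of one kind and less RNA per cell cannot be told apart.

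**Figure D1:**
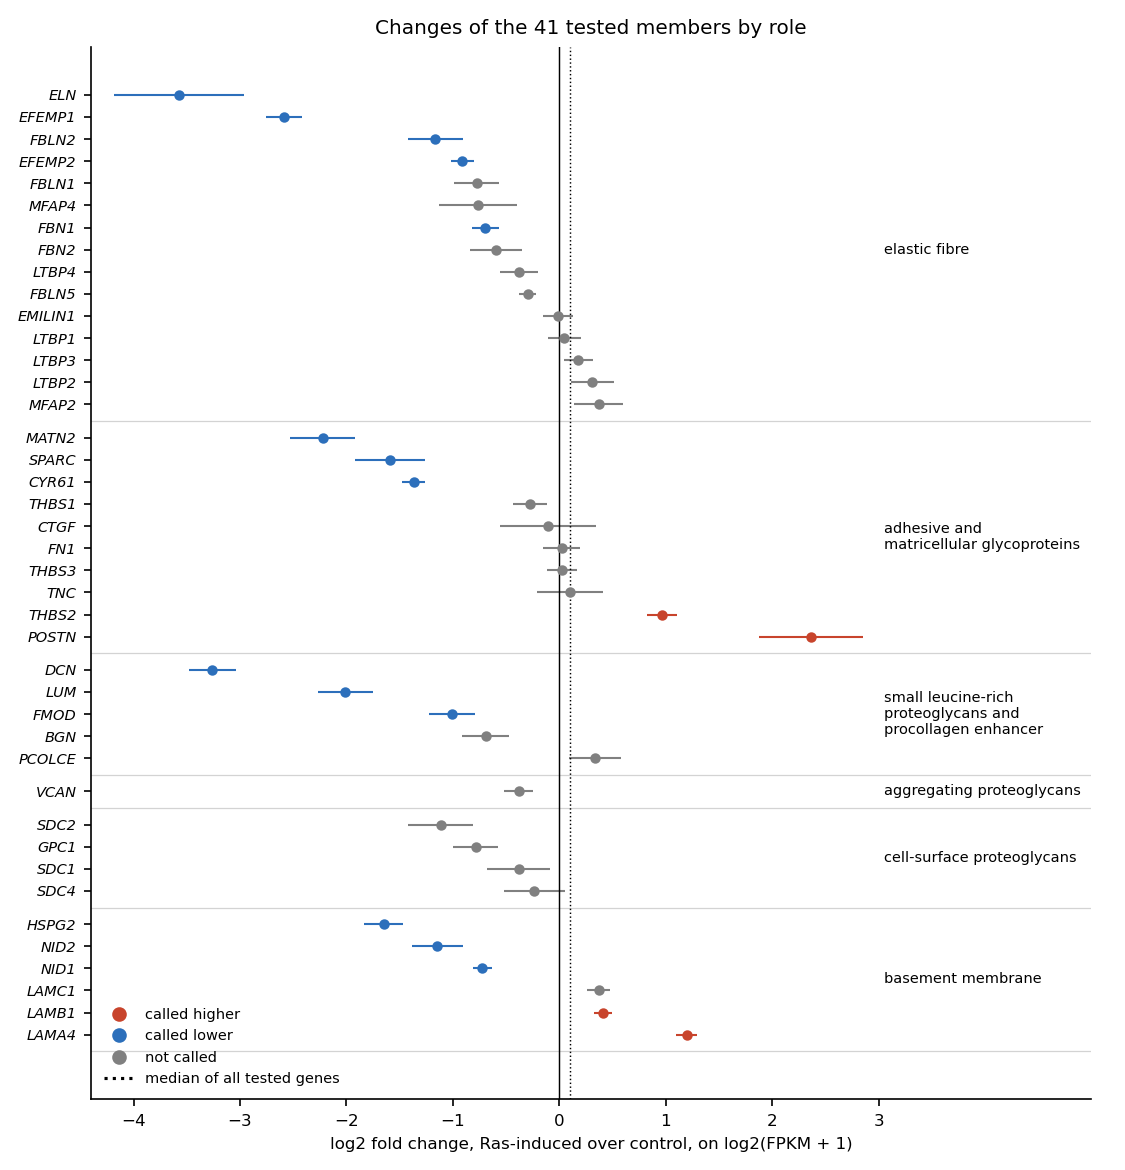
Log2 fold change of each of the 41 tested members, Ras-induced over control on log2(FPKM + 1), grouped by role, with points for the limma estimate, bars for its standard error, a solid line at no change and a dotted line at the median of all tested genes (0.10). Called falls stand at the left of the elastic fibre, adhesive and leucine-rich proteoglycan groups, among them ELN at -3.57 and DCN at -3.26, while the basement membrane group has 3 called falls and 2 called rises. Over all tested genes 5.67% were called lower and 11% higher.

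The labels were checked first. HRAS stood between 1140 and 1176 FPKM in the controls and between 1439 and 1847 FPKM in the Ras-induced libraries (log2 fold change 0.44, limma adjusted p = 0.0431). Of 12 ERK target genes 8 were called higher and 1, FOSL1, lower, the largest rise being that of EREG (from 1.66 to 35.3 FPKM). All 13 mitotic markers were tested and 6 were called lower, their summed FPKM being 2333 to 2432 in controls and 1880 to 2092 in Ras-induced libraries. Of the G1/S markers 10 were tested, all with estimates below 0, and MCM2, MCM6 and PCNA were called lower, with sums of 492 to 505 FPKM in controls and 388 to 446 FPKM in Ras-induced libraries. Of the 12 fibroblast markers, all tested, COL1A2 and THY1 were called lower and TWIST2 higher. Leukocyte markers summed to at most 0.902 FPKM in any library, and the endothelial markers PECAM1 and EMCN were listed at 0 in every library, although the angiopoietin receptor gene TEK fell from 15.3 to 4.93 FPKM. Epithelial markers summed to 24.8 to 38.1 FPKM in controls and 24.6 to 27.5 FPKM in Ras-induced libraries, with none of the 4 tested called. Of 7 smooth muscle and myofibroblast markers, 6 were tested and 5 fell, among them ACTA2 (from 83.8 to 7.91 FPKM) and LMOD1 (from 9.26 to 0.509 FPKM), and their sums were 1093 to 1433 FPKM in controls and 317 to 423 FPKM in Ras-induced libraries. The part of these shifts in the results below was not tested. Depth relative to control library 1 was read from the most frequent ratio of low FPKM values of the same gene in that library and another. It was 0.949 and 1.17 in the other controls and 0.841 to 1.13 in the Ras-induced libraries, and absolute depth is not known from FPKM.

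Promoter sequence was available for 37 members. It is shown for the 4 members that rose and for HSPG2 and NID1 among the basement membrane members that fell. NID2, which fell more than NID1, also had an entry and is not shown. Each line gives the 120 bases before the RefSeq start on the gene's own strand, in build GRCh38.p14. Capitals mark matches on either strand to 5 short motifs, and adjoining capitals can be overlapping matches. The letters searched were TGANTCA for the AP-1 factors, CATTCC for the TEAD partners of YAP, GGGCGG for the GC box, CCAAT for the box of that name and, for the core promoter element near the start, TATAAA. Positions are chr13:37598769-37598888 for POSTN, chr6:169253847-169253966 for THBS2, chr6:112254568-112254687 for LAMA4, chr7:108003162-108003281 for LAMB1, chr1:21937311-21937430 for HSPG2 and chr1:236065091-236065210 for NID1, all on the minus strand.
POSTN: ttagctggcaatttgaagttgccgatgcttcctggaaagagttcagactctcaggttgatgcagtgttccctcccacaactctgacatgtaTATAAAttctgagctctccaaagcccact
THBS2: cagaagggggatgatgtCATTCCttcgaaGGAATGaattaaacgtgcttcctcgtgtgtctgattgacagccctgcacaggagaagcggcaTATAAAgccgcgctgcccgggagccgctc
LAMA4: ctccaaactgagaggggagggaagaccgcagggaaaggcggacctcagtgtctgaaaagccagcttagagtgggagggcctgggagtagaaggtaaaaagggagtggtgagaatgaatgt
LAMB1: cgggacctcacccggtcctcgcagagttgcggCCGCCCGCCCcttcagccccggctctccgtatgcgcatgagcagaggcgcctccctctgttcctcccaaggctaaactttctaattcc
HSPG2: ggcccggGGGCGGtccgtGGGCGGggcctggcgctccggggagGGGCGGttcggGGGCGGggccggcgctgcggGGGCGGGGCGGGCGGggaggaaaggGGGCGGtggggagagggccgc
NID1: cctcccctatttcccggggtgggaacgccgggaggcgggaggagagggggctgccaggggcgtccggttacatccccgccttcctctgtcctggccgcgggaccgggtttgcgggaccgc

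In the full 250 bases before the start, TATAAA was found in 2 of the 4 members that rose, POSTN and THBS2, in both with a match whose first base is 29 bases before the start, and POSTN had a second match farther upstream. It was found in 1 of the 8 members that fell and had a promoter entry, and in 11.1% of all 27305 promoters. GGGCGG was found in 27 of the 37 members (73%) and in 42.3% of all promoters, with 1 of the 4 that rose, 6 of the 8 that fell and 18 of the 20 that were tested and not called among them. CATTCC was found in 8 members (21.6%, against 11.9% of all promoters), CCAAT in 11 (29.7%, against 33%) and TGANTCA in 2 (5.41%, against 6.6%). These are matches of letters and not binding sites. ELN, MFAP4, MFAP5, EMILIN1, EFEMP1, DCN, LUM, SDC2, CYR61 and MATN2 had no entry.

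Among the 16 elastic fibre genes, 15 were tested and 5 were called, all lower (5.67% of all tested genes), while the LTBP family and the microfibril protein MFAP2 did not pass the test. The summed FPKM of the group was 884, 943 and 1116 in the control libraries and 748, 746 and 713 in the Ras-induced libraries, without overlap. With 3 libraries a side, 0.1 is the smallest p that an exact two-sided permutation test can give, and the sum reached it.

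ELN encodes tropoelastin, the soluble precursor of elastin, and lies at chr7:73442119-73484237 (GRCh37, as are all gene positions here). Its FPKM was 12.2, 38.7 and 5.45 in control libraries 1, 2 and 3 and 0.241, 0.470 and 0.101 in the Ras-induced libraries. Every Ras-induced value was below the lowest control value, although the controls themselves spanned 5.45 to 38.7. ELN had a log2 fold change of -3.57 ± 0.61 (SE, limma adjusted p = 0.0128), which was -2.87 without control library 2, -4.18 without control library 3 and -5.35 with a pseudocount of 0.1, and it went from the 31st to the 41st place in the order of member levels.

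The fibulins and fibulin-like proteins were split by size of change. EFEMP1 (fibulin-3, chr2:56093102-56151274) stood at 44.9, 31.5 and 28.9 FPKM in controls and at 4.63, 5.36 and 4.73 FPKM in Ras-induced libraries. The groups lay far apart and the Ras-induced values close together, with a log2 fold change of -2.59 ± 0.17 (SE, limma adjusted p = 0.00126). Its paralog EFEMP2 (fibulin-4), which is needed to crosslink elastin, was higher than EFEMP1 in every library and fell less, from 156 ± 3.56 to 83.0 ± 10.7 FPKM (SD, n = 3 each, log2 fold change -0.91, limma adjusted p = 0.00446). The ratio of EFEMP1 to EFEMP2 within a library was 0.181 to 0.294 in controls and 0.0537 to 0.0667 in Ras-induced libraries.

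FBLN2, a fibulin of low level (chr3:13590625-13679922), measured 3.27, 5.19 and 6.86 FPKM in controls and 1.88, 1.96 and 1.15 FPKM in Ras-induced libraries. Its groups did not overlap and its log2 fold change was -1.17 ± 0.26 (SE, limma adjusted p = 0.0282), but leaving out control library 2 or 3, or any one Ras-induced library, ended the call with an adjusted p of 0.0562 to 0.0877, as did testing with no filter on low values (0.0809). FBLN1, far more abundant, went from 149 ± 45.0 to 84.9 ± 12.3 FPKM and missed the threshold (SD, n = 3 each, limma adjusted p = 0.0527). FBLN5, a fibulin that binds tropoelastin, went from 62.3 ± 3.68 to 50.4 ± 2.87 FPKM and missed it as narrowly (SD, n = 3 each, limma adjusted p = 0.052). Neither FBLN1 nor FBLN5 overlapped between groups. Both were called lower with a filter of 5 FPKM (adjusted p = 0.0383 and 0.0497) and under upper-quartile scaling (0.0484 and 0.0303), FBLN1 also under pseudocounts of 0.1 and 0.5 (0.042 and 0.0496) and FBLN5 under quantile normalization (0.0297). With no filter neither was called (0.132 and 0.0774). Leaving out any one library also left both uncalled (0.0502 to 0.133 for FBLN1 and 0.0879 to 0.133 for FBLN5).

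Of the fibrillins, which form the microfibril core, FBN1 fell from 109 ± 14.6 to 66.5 ± 7.23 FPKM (SD, n = 3 each, log2 fold change -0.70, limma adjusted p = 0.0163). Leaving out control library 2, Ras-induced library 1 or Ras-induced library 3 ended this call, with an adjusted p of 0.0575 to 0.0604. FBN2, the fibrillin of developing tissue, was at 18.7 ± 4.88 and 12.1 ± 3.35 FPKM (SD, n = 3 each) and was not called. The ratio of FBN2 to FBN1 overlapped between groups.

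Proteins that bind or decorate microfibrils mostly did not pass the test. MFAP2, a small microfibril protein with the largest positive estimate of the group, stood at 12.7, 15.6 and 9.11 FPKM in controls and 20.7, 15.6 and 12.9 FPKM in Ras-induced libraries. These ranges overlapped (log2 fold change 0.37 ± 0.23, SE, limma adjusted p = 0.304), and 13.6% of its exon bases are shared with a gene on the opposite strand. MFAP4 varied from 5.46 to 15.9 FPKM among controls and from 3.53 to 6.34 FPKM among Ras-induced libraries, and MFAP5 was at or below 0.124 FPKM throughout. EMILIN1, which sits at the interface of elastin and microfibril, averaged 122 FPKM in both groups. The latent TGF-β binding proteins LTBP1, LTBP2 and LTBP3 had log2 fold changes of 0.05, 0.31 and 0.18 and LTBP4 of -0.38, none of them called. LTBP4 nevertheless lost ground to LTBP1 in every Ras-induced library, at 0.238 to 0.289 of the LTBP1 level against 0.334 to 0.379 in controls.

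**Figure D2:**
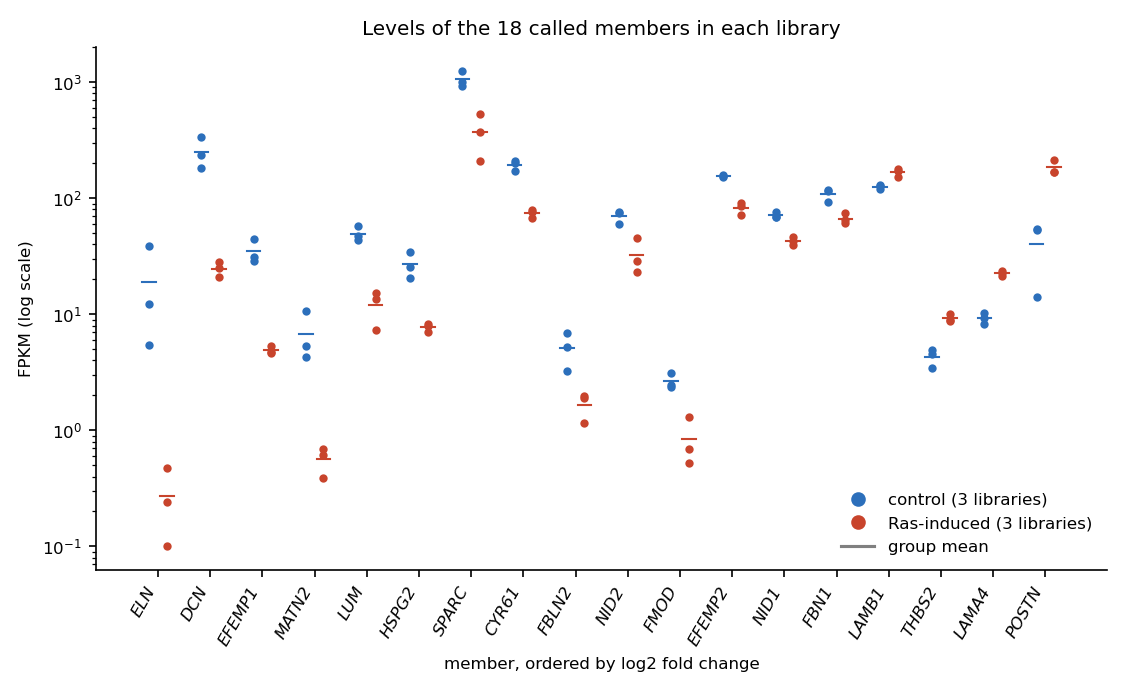
FPKM of the 18 called members in each library on a log axis, ordered by log2 fold change, with 3 control and 3 Ras-induced points per gene and a line at each group mean. The groups are apart for every gene shown, and the widest scatter among controls is that of ELN (5.45 to 38.7 FPKM) and POSTN (14.2 to 54.5 FPKM).

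The adhesive and matricellular glycoproteins held the most abundant members and moved in both directions, with 2 of the 10 tested called higher and 3 called lower (11% and 5.67% of all tested genes). SPARC, FN1 and THBS1 were the 3 highest members in control cells, and only SPARC among them changed by the test. The ranges of SPARC and FN1 overlapped in the controls, while FN1 and THBS1, and THBS1 and the next member DCN, were apart.

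SPARC encodes osteonectin, a collagen-binding matricellular protein, and lies at chr5:151040657-151066536. It measured 1001, 1254 and 925 FPKM in controls and 374, 534 and 211 FPKM in Ras-induced libraries. All Ras-induced values were below the lowest control, with a 2.5-fold spread among them, and the log2 fold change was -1.59 ± 0.32 (SE, limma adjusted p = 0.0221). The call was lost without control library 1, control library 2 or Ras-induced library 1 (adjusted p = 0.0641, 0.0724 and 0.0631), and with no filter on low values (0.0703).

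FN1, the fibronectin gene, measured 711, 1020 and 1106 FPKM in controls and 872, 1046 and 923 FPKM in Ras-induced libraries. The ranges lay across each other and the means were 945 and 947 FPKM (limma adjusted p = 0.94). FN1 accordingly made up 17.9% of the summed FPKM of all members in control cells and 24.2% in Ras-induced cells, and passed SPARC in the order of levels. THBS1, which encodes an angiogenesis inhibitor that also activates TGF-β, measured 368, 428 and 346 FPKM in controls and 359, 341 and 251 FPKM in Ras-induced libraries. Its groups overlapped and it was not called (log2 fold change -0.27, limma adjusted p = 0.267).

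POSTN was the member that rose most. It encodes periostin, a fasciclin-domain protein that links fibronectin, tenascin-C and collagen, and lies at chr13:38136720-38172981. Its FPKM was 14.2, 53.4 and 54.5 in control libraries 1, 2 and 3 and 170, 214 and 169 in the Ras-induced libraries. Control library 1 was well under the other controls, and all 3 Ras-induced values were above every control. The log2 fold change was 2.36 ± 0.49 (SE, limma adjusted p = 0.0236), and POSTN moved from the 25th to the 6th place among the members. Without control library 1 the log2 fold change was 1.75. The call did not hold without any one of the Ras-induced libraries, where the adjusted p was 0.0658 to 0.0699, or with no filter on low values (0.0722). Within libraries POSTN was 0.0200 to 0.0523 of the FN1 level in controls and 0.183 to 0.205 of it in Ras-induced libraries.

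THBS2, a paralog of THBS1 with anti-angiogenic activity, rose from 4.31 ± 0.790 to 9.29 ± 0.740 FPKM (SD, n = 3 each, log2 fold change 0.96, limma adjusted p = 0.00858). An antisense gene, THBS2-AS1, covers 31.2% of the THBS2 exon bases in the annotation, and it was at 0.454 FPKM or less in every library. The ratio of THBS2 to THBS1 was 0.0093 to 0.0132 in controls and 0.0248 to 0.0404 in Ras-induced libraries. THBS3 was at 4.77 and 4.86 FPKM in the 2 groups and was not called, with 29.1% of its exon bases shared with genes on the opposite strand, of which MTX1 was at 20.9 to 22.6 FPKM in controls and 25.6 to 32.4 FPKM in Ras-induced libraries.

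Of the genes of the CCN proteins CYR61 (CCN1) and CTGF (CCN2), secreted integrin ligands induced by serum and YAP, only CYR61 was called. CYR61 (chr1:86046444-86050272) measured 200, 172 and 209 FPKM in controls and 79.7, 67.4 and 75.6 FPKM in Ras-induced libraries. The groups were well apart, with a log2 fold change of -1.37 ± 0.11 (SE, limma adjusted p = 0.00186). CTGF was at 16.7, 10.6 and 8.99 FPKM in controls and at 23.1, 7.17 and 7.34 FPKM in Ras-induced libraries, so 1 Ras-induced library was above all controls and the others were below them (limma adjusted p = 0.894). Without Ras-induced library 1 the CTGF log2 fold change went from -0.11 to -0.62, still not called (adjusted p = 0.177). The ratio of CTGF to CYR61 was 0.0430 to 0.0834 in controls and 0.0972 to 0.289 in Ras-induced libraries.

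MATN2 encodes matrilin-2, an adaptor of the filamentous matrix. It stood at 4.26, 5.30 and 10.6 FPKM in controls and at 0.690, 0.608 and 0.386 FPKM in Ras-induced libraries. No value overlapped, and the log2 fold change was -2.23 ± 0.30 (SE, limma adjusted p = 0.00699), or -3.29 with a pseudocount of 0.1. TNC, encoding the anti-adhesive tenascin-C, was at 235 ± 97.1 and 245 ± 70.4 FPKM (SD, n = 3 each), with library 3 highest in both groups. TNXB and COMP were at or below 0.26 FPKM in every library and were not tested.

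Of the 6 small leucine-rich proteoglycans, 4 were tested, 3 fell and none rose, where 5.67% of all tested genes were called lower and 11% higher. The procollagen C-proteinase enhancer gene PCOLCE did not fall with them. The 2 others, OGN and PRELP, were at or below 0.123 FPKM in every library. The summed FPKM of this group of 7 was 391, 496 and 697 in controls and 268, 317 and 272 in Ras-induced libraries, and PCOLCE alone made up 34.9% of the sum in control cells and 78.3% in Ras-induced cells. The difference between the group means of the log2 sums was -0.85 with PCOLCE and -2.46 without it.

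DCN encodes decorin, which binds collagen fibrils and TGF-β, and lies at chr12:91534261-91576994. It measured 184, 234 and 335 FPKM in controls and 25.1, 28.2 and 20.8 FPKM in Ras-induced libraries. The lowest control was far above the highest Ras-induced value, and the log2 fold change was -3.26 ± 0.22 (SE, limma adjusted p = 0.0013). DCN was the 4th most abundant member in control cells and the 24th in Ras-induced cells.

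LUM, the gene of the corneal and dermal proteoglycan lumican, lies on the same chromosome at chr12:91496406-91505271. It measured 43.3, 47.2 and 58.0 FPKM in controls and 15.1, 13.4 and 7.30 FPKM in Ras-induced libraries. It was lower in each Ras-induced library than in any control (log2 fold change -2.01 ± 0.26, SE, limma adjusted p = 0.00582), but it fell less than DCN, with a LUM to DCN ratio of 0.173 to 0.236 in controls and 0.350 to 0.603 in Ras-induced libraries.

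FMOD encodes fibromodulin (chr1:203309756-203320886) and was near the test's filter. Its FPKM was 3.13, 2.37 and 2.45 in controls and 1.31, 0.519 and 0.689 in Ras-induced libraries. The groups were apart (log2 fold change -1.01 ± 0.22, SE, limma adjusted p = 0.0262), yet leaving out any control library or Ras-induced library 2 or 3 ended the call, with an adjusted p of 0.0518 to 0.0854, as did testing with no filter (0.063), and with a pseudocount of 0.1 the log2 fold change was -1.63. BGN, the gene of biglycan and a close paralog of DCN, was at 40.4 ± 9.49 and 24.5 ± 5.45 FPKM (SD, n = 3 each) and was not called (limma adjusted p = 0.076). The DCN to BGN ratio was 4.798 to 7.92 in controls and 0.933 to 1.08 in Ras-induced libraries.

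PCOLCE, whose product speeds removal of the procollagen C-propeptide, measured 130, 164 and 259 FPKM in controls and 203, 245 and 224 FPKM in Ras-induced libraries. Its groups overlapped (log2 fold change 0.33 ± 0.24, SE, limma adjusted p = 0.381), but without control library 3, the highest of the controls, PCOLCE was called higher (log2 fold change 0.61, adjusted p = 0.0368). This was the only 1 of the 14 alternative fits to call PCOLCE. Without control library 1 its log2 fold change was 0.11 (adjusted p = 0.751). PCOLCE-AS1, which overlaps 16.8% of its exon bases on the other strand, was at 0.241 FPKM or less. The ratio of PCOLCE to DCN was 0.700 to 0.773 in controls and 8.08 to 10.8 in Ras-induced libraries, the largest difference among the 21 ratios computed. None of the 21 ratios can go below an exact two-sided permutation p of 0.1, so none is called. The pairs were listed by hand without a stated rule, and each ratio restates the levels of both its members.

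**Figure D3:**
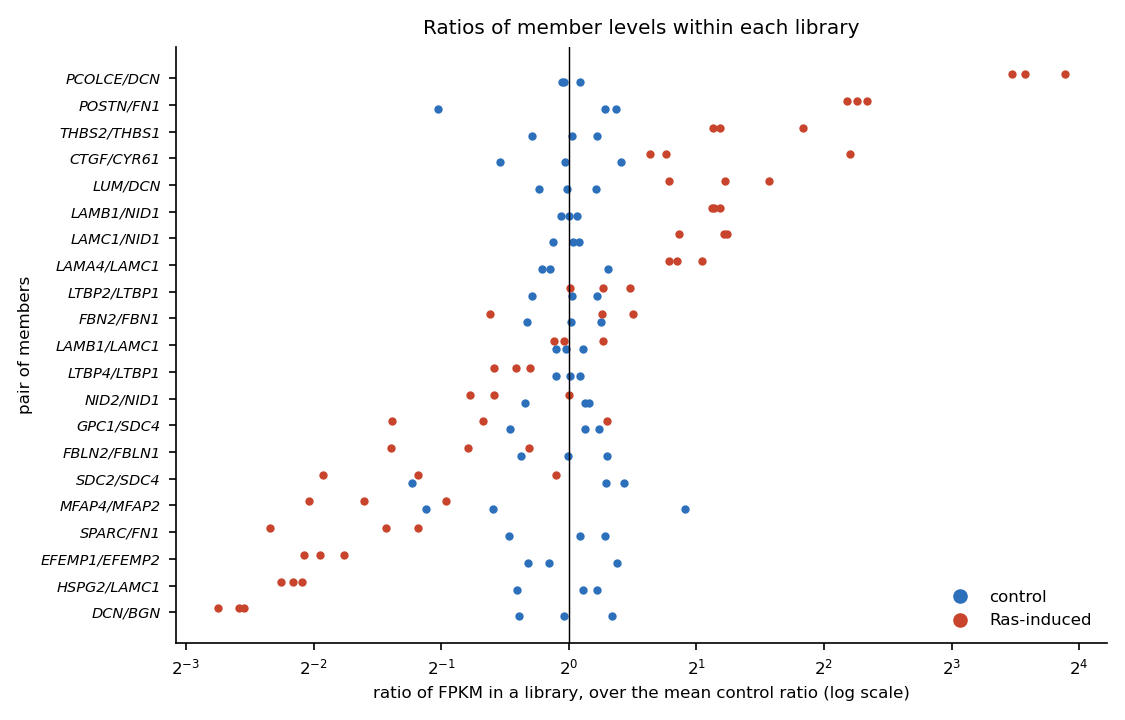
Ratio of the FPKM of paired members in each library, divided by the mean control ratio of that pair, on a log axis, with control and Ras-induced points for each of 21 pairs. PCOLCE over DCN and POSTN over FN1 stand farthest to the right, DCN over BGN and HSPG2 over LAMC1 farthest to the left, and LAMB1 over LAMC1 overlaps between groups.

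The aggregating proteoglycans were represented by VCAN, which encodes versican, the large chondroitin sulfate proteoglycan of fibroblast matrix. It measured 68.0, 77.6 and 95.8 FPKM in controls and 56.1, 61.7 and 65.5 FPKM in Ras-induced libraries. The ranges did not overlap, but the difference did not pass the test (log2 fold change -0.38 ± 0.14, SE, limma adjusted p = 0.104). ACAN, the aggrecan gene of cartilage, was at 0.484 FPKM or less in every library and was not tested.

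None of the 4 cell-surface proteoglycans was called, although all 4 had estimates below 0 and their summed FPKM was 355, 379 and 428 in controls and 226, 275 and 253 in Ras-induced libraries. SDC2, a syndecan of mesenchymal cells, measured 109, 104 and 62.3 FPKM in controls and 36.9, 60.3 and 30.1 FPKM in Ras-induced libraries. Control library 3 was close to Ras-induced library 2 but the groups did not overlap (log2 fold change -1.12 ± 0.31, SE, limma adjusted p = 0.0525). GPC1, a glypican anchored to the membrane by lipid, went from 149 ± 13.6 to 88.4 ± 28.1 FPKM (SD, n = 3 each, limma adjusted p = 0.0508). Both lie just above the threshold, and each was called under pseudocounts of 0.1 and 0.5, a filter of 5 FPKM and both rescalings. With no filter neither was called (limma adjusted p = 0.134 for SDC2 and 0.127 for GPC1). Leaving out control library 1 or 2 or Ras-induced library 1 or 3 also left both uncalled (0.0941 to 0.142). SDC4, a syndecan of focal adhesions with the smallest change of the group, measured 90.0, 94.8 and 163 FPKM in controls and 93.1, 71.8 and 127 FPKM in Ras-induced libraries. It and SDC1 (30.7 and 23.1 FPKM) overlapped between groups.

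The basement membrane genes moved in both directions. Their summed FPKM was 414 ± 18.0 in controls and 415 ± 24.0 in Ras-induced libraries (SD, n = 3 each, exact two-sided permutation p = 1), with a log2 difference of 0.00 that became -0.11 under upper-quartile scaling and -0.22 without LAMB1, while in each of the 6 genes the groups were apart, as in 39.9% of all tested genes. The laminin chain genes LAMA4 and LAMB1 rose, and the linkers HSPG2, NID1 and NID2 fell. The adhesive glycoproteins were the other role with called members in both directions.

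LAMA4 encodes the laminin α4 chain and lies at chr6:112429134-112576141. Its FPKM was 8.28, 10.2 and 9.32 in controls and 23.6, 22.6 and 21.2 in Ras-induced libraries. Every Ras-induced value was well above the highest control value, and the log2 fold change was 1.20 ± 0.10 (SE, limma adjusted p = 0.00212). LAMB1 and LAMC1 encode the β1 and γ1 chains that join α4 in the trimer. LAMB1 rose from 125 ± 4.69 to 167 ± 13.8 FPKM (SD, n = 3 each, log2 fold change 0.41, limma adjusted p = 0.0236), and LAMC1, at 111 ± 12.4 and 143 ± 12.7 FPKM (SD, n = 3 each), was not called (limma adjusted p = 0.0671). The LAMB1 call was lost under upper-quartile scaling (adjusted p = 0.0644) and without control library 1 or 2 or Ras-induced library 1 or 2 (0.0607 to 0.0858). The LAMB1 to LAMC1 ratio was 1.14 and 1.18 on average and overlapped between groups.

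HSPG2, the perlecan gene (chr1:22148737-22263803), measured 20.7, 25.5 and 34.5 FPKM in controls and 7.88, 7.05 and 8.25 FPKM in Ras-induced libraries. All Ras-induced values were well below the controls and close together, with a log2 fold change of -1.65 ± 0.18 (SE, limma adjusted p = 0.00384). LDLRAD2, which overlaps 11.7% of its exon bases on the other strand, was at 0.121 FPKM or less. In its promoter window above, GGGCGG matched at 8 places, and none of the 5 motifs matched in the windows of NID1 or LAMA4.

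Of the nidogens, NID2 (chr14:52471527-52535777) measured 76.8, 74.5 and 60.4 FPKM in controls and 28.7, 45.8 and 23.0 FPKM in Ras-induced libraries. The groups were apart (log2 fold change -1.15 ± 0.24, SE, limma adjusted p = 0.0251), but the call was lost without control library 1 or 2 or Ras-induced library 1 or 3 (adjusted p = 0.0613 to 0.0798) and with no filter (0.0729). RTRAF shares 30.7% of the NID2 exon bases on the opposite strand and was at 139 to 162 FPKM in controls and 161 to 179 FPKM in Ras-induced libraries. No use of strand is stated for these values, and without it reads from that overlap cannot be told apart. NID1 fell from 71.3 ± 4.73 to 42.8 ± 3.19 FPKM (SD, n = 3 each, log2 fold change -0.72, limma adjusted p = 0.00519). LAMB1 was 1.68 to 1.84 times NID1 in controls and 3.83 to 4.00 times NID1 in Ras-induced libraries, and HSPG2 was 0.184 to 0.283 of LAMC1 in controls and 0.0509 to 0.0571 of it in Ras-induced libraries.

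**Figure D4:**
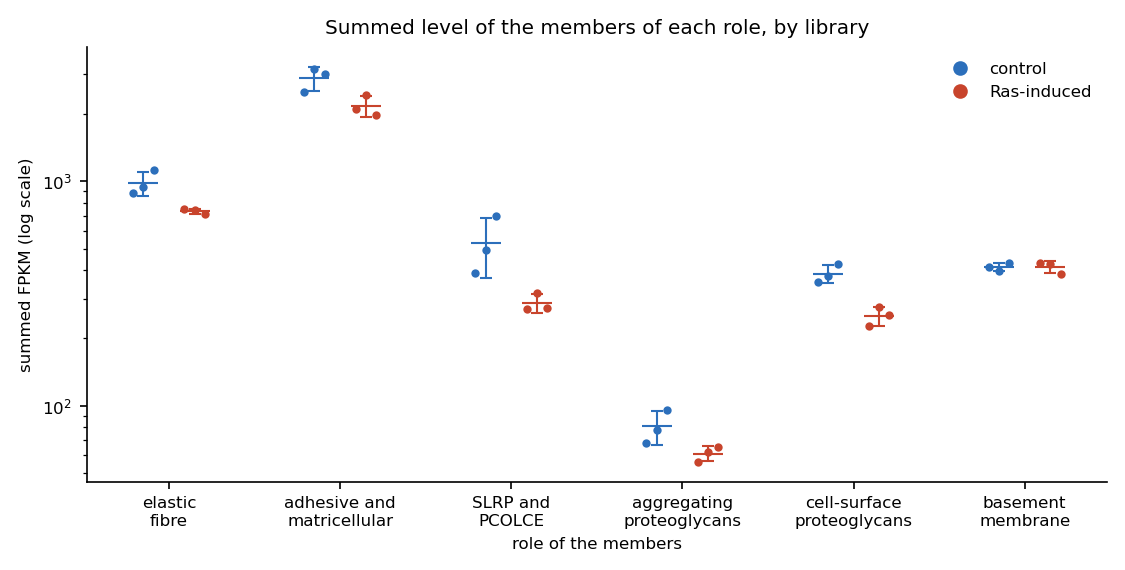
Summed FPKM of the members of each role in each library on a log axis, with points for libraries, and a horizontal line and bars for mean and SD of the 3 libraries of a group. The groups are apart in every role except the basement membrane, at 414 in controls and 415 in Ras-induced libraries.

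Across roles, the summed FPKM of all 47 members was 4599, 5442 and 5785 in controls and 3823, 4260 and 3670 in Ras-induced libraries, or 0.805 to 1.04% and 0.617 to 0.683% of all FPKM. The controls were not alike. Control library 3 had the highest control value for 27 of the 41 tested members and control library 1 the lowest for 22, and among the Ras-induced libraries library 3 was lowest for 21. Of the 18 calls, 11 were made in every one of the 14 alternative fits that tested the gene, those of ELN, DCN, EFEMP1, MATN2, LUM, HSPG2, CYR61, EFEMP2, NID1, LAMA4 and THBS2. The 7 others were lost in at least 1 alternative, as given beside FBN1, FBLN2, SPARC, POSTN, FMOD, LAMB1 and NID2.

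Other genes of the same matrix, from lists that hold no member, were read in the same fit. Of 31 tested matrix glycoproteins outside the members, 2 rose and 5 fell. SRPX and SRPX2, sushi-repeat proteins, went from 61.9 to 220 and from 10.4 to 23.0 FPKM (log2 fold changes 1.82 and 1.05, limma adjusted p = 0.00212 and 0.0153). The falls were led by NTN4, a laminin-binding netrin (from 35.0 to 4.33 FPKM, log2 fold change -2.78, limma adjusted p = 0.00264), the CCN gene WISP1 (from 11.5 to 2.39 FPKM, -1.87, 0.027) and IGFBP7 (from 253 to 82.6 FPKM, -1.62, 0.00585). The share called, 22.6%, compares with 16.7% of all tested genes, and without control library 1 or Ras-induced library 1 1 gene of the list was called higher.

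Of 11 further proteoglycans tested, 1 rose and 5 fell, where 11% of all tested genes were called higher and 5.67% lower. Both rescalings also gave 1 and 5, with the order of the all-gene shares reversed as above. ESM1, a secreted dermatan sulfate proteoglycan known from endothelium, went from 14.6 to 56.4 FPKM (log2 fold change 1.98, limma adjusted p = 0.0259), and its call was lost without control library 1 or 2 or Ras-induced library 1 or 3. The largest falls were those of HAPLN3 (from 5.17 to 1.69 FPKM), PODN (from 2.59 to 0.678 FPKM) and SRGN (from 12.1 to 5.52 FPKM). Fits that leave out any 1 of the 6 libraries called 1 to 3 genes of this list lower.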

How the data were processed

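Poly(A) RNA of 6 libraries, 3 control and 3 Ras-induced, was sequenced. Per the labels and the study's methods, the authors trimmed reads with Trim Galore 0.3.0, used TopHat2 for alignment to hg19 with Ensembl junctions, and deposited FPKM per gene and library, calculated with Cufflinks. No scaling between libraries and no use of strand is stated, so depth is known only relative to another library and no count test was run. Column names give the group and a number but no sample. There were 18 further unnamed columns, which were not used, and 120 genes with more than 6 values in their row were left out. The deposited cuffdiff comparison, which holds group FPKM, fold changes and p-values, was not used.

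Here limma 3.58.1 (R 4.3.3) was run on log2(FPKM + 1) of the 13993 genes whose mean reached 1 FPKM, with lmFit and a trended eBayes, without a replicate block. Two-sided p-values were Benjamini-Hochberg adjusted over these genes and called at 0.05. The procedure was tested on simulated data. The members and lists were chosen with earlier results of these data known. Values in every library were given for called members whose log2 fold change reached 1 in either direction, for the largest rise and fall in each role and for the 3 members of highest control mean, and in each other list the 3 largest called rises and falls were named; sequences were chosen among the largest changes and their partners. CTGF, set out in full beside its paralog CYR61, was chosen after its values were seen. Positions and exon overlaps are from GENCODE 44 on GRCh37, and promoters from RefSeq on GRCh38.p14, with 37 of 47 members matched by Ensembl identifier or symbol. A planned comparison of member proteins was not run. Alternatives were pseudocounts of 0.1 and 0.5, no filter, a filter of 5 FPKM, quantile and upper-quartile scaling, no trend, a replicate block and each library left out. Python 3.11.15, pandas 2.3.3, numpy 2.4.6 and matplotlib 3.10.9 were used.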

Additional observations from a re-analysis of the deposited data

How the results depend on the processing

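No called member changed direction under any of the 14 alternative fits. Of the members called, 2 rose with a log2 fold change of at least 1. Leaving out each library in turn gave 2 to 5 members called higher and 9 to 14 lower, a median log2 fold change of the members of -0.62 to -0.34, 1 to 3 other matrix glycoproteins higher and 4 to 6 lower, 0 to 1 other proteoglycans higher and 1 to 3 lower, and 1 to 5 glycosaminoglycan enzymes higher and 3 to 5 lower. Differences between the group means of log2 summed FPKM were then -0.52 to -0.36 for all members, -0.48 to -0.31 for elastic fibre genes, -0.51 to -0.34 for adhesive glycoproteins, -1.05 to -0.63 for leucine-rich proteoglycans with PCOLCE, -0.50 to -0.26 for aggregating proteoglycans, -0.69 to -0.55 for cell-surface proteoglycans and -0.03 to 0.05 for basement membrane genes. Quantile normalization and upper-quartile scaling gave members' medians of -0.50 and -0.49, with 2 glycosaminoglycan enzymes higher under each, and upper-quartile scaling moved the basement membrane sum from 0.00 to -0.11. Without FN1, the adhesive sum was at -0.67, without PCOLCE the leucine-rich sum at -2.46, and without LAMB1 the basement membrane sum at -0.22. Aggregating proteoglycans have no such value, since ACAN alone remains. With the number in the column names as a replicate block, 22 members were called, of which 17 were called without it; FBLN2 was lost and FBLN1, LAMC1, SDC1, SDC2 and VCAN were gained. Deviations of same-numbered libraries correlated at -0.003, 0.043 and 0.048, and those of differently numbered libraries at -0.068 to 0.031. These values cannot settle whether same-numbered libraries were paired. With no filter on low values 13 members were called, and the cause was not tested. Depth limits the members under 1 FPKM, and 3 libraries a group limit every exact test to p = 0.1.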

Other observations

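The enzymes that build and edit the sugar chains of the proteoglycans above were measured as well, and 31 of them were tested. Of these, 5 rose and 6 fell, where 11% of all tested genes were called higher and 5.67% lower in the deposited values, with a median log2 fold change of -0.05 against 0.10 for all tested genes. The number called higher was 1 or 2 without control library 1 or 2 or Ras-induced library 1 or 3 and 2 under either rescaling. The number called lower was 7 and 9 after quantile and upper-quartile scaling, which also reverse the order of the all-gene shares, and 3 without control library 1 or Ras-induced library 1 or 3. XYLT1, a xylosyltransferase that starts the chains on the core protein, measured 21.4, 20.6 and 15.7 FPKM in controls and 5.43, 4.96 and 5.09 FPKM in Ras-induced libraries. Its groups were far apart, with a log2 fold change of -1.70 (limma adjusted p = 0.00186).

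The other called enzymes rose or fell as follows. CHST11, a chondroitin 4-O-sulfotransferase, stood at 3.84, 3.36 and 3.08 FPKM in controls and rose to 10.009, 13.9 and 8.69 FPKM in Ras-induced libraries (log2 fold change 1.40, limma adjusted p = 0.00552). CHST3, a chondroitin 6-O-sulfotransferase, stood at 17.5, 15.2 and 9.60 FPKM in controls and fell to 4.19, 3.59 and 3.25 FPKM (log2 fold change -1.66, limma adjusted p = 0.00609). CHST3 was therefore above CHST11 in every control library and below it in every Ras-induced library. HS2ST1, a heparan sulfate 2-O-sulfotransferase, rose from 13.4 to 25.1 FPKM and EXTL2 from 14.9 to 20.8 FPKM, while SULF1, which removes 6-O-sulfate from heparan sulfate outside the cell, fell from 2.79 to 0.340 FPKM (log2 fold changes 0.83, 0.46 and -1.47, limma adjusted p = 0.0177, 0.0217 and 0.0106). The remaining calls were rises of HS3ST3A1 and UST and falls of CSGALNACT1, CHST14 and the heparan sulfate 6-O-sulfotransferase gene HS6ST1 (from 32.3 to 14.3 FPKM, log2 fold change -1.11, limma adjusted p = 0.0201).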
